A study of Mus musculus with 4 samples.

Results

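Border-associated macrophages, the resident macrophages of the meninges, perivascular spaces and choroid plexus, made up 82 of the 7868 cell barcodes kept in 4 single-cell RNA libraries from the mouse central nervous system. They were chosen by a rule on unique molecular identifiers (UMIs), the tags that mark single captured RNA molecules. Barcodes needed 500 UMIs and 250 genes or more, with no more than 20% of UMIs mitochondrial. A barcode counted as a member when Pf4, Mrc1, Cbr2, Cd163, Lyve1, Folr2 and Clec10a together held at least 3 UMIs and at least 0.3% of its UMIs. In addition, the microglial genes P2ry12, Tmem119, Siglech and Gpr34 and the monocyte genes Plac8 and Chil3 each had to sum to under 0.3%, and the vascular genes Flt1, Cldn5, Rgs5 and Vtn to under 0.5%. The rule reads measured values, so the levels of these 17 genes in the members are given as a description and support nothing.

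The libraries were made by inDrops, a droplet method, from C57BL6 mice that carried Aldh1l1CreERT2-TdTomato, a fluorescent reporter driven from the promoter of the astrocyte gene Aldh1l1. TdTomato+ LAMP1+ cells were sorted by surface TRAIL, the death ligand encoded by Tnfsf10, into a TRAIL- and a TRAIL+ gate. The mice were untreated (naive) or in the peak phase of the multiple sclerosis model experimental autoimmune encephalomyelitis (EAE), induced with the myelin peptide MOG35-55 in complete Freund's adjuvant. The 4 groups, TRAIL- and TRAIL+ cells of naive and of EAE mice, were thus all TdTomato+ and LAMP1+, with 1 library each from 3 naive and 3 EAE mice. The sources used here do not state the age or sex of the mice, any induction of Cre or whether animals were pooled. With 1 library per group no spread between animals could be measured and no test was made. Every interval below is an exact 95% interval of counting error, which treats UMIs of the same cell as independent and is therefore too narrow for genes held by few cells.

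Border-associated macrophages are long-lived cells that, unlike microglia, sit outside the parenchyma, where they take up material from blood and cerebrospinal fluid. They are known for scavenger receptors such as the mannose receptor Mrc1 and the haemoglobin receptor Cd163, and for the chemokine-like platelet factor Pf4. A subset displays antigen on MHC class II, the pair of chains that presents peptides to CD4+ T cells, and brain border macrophages are among the cells studied as antigen-presenting cells in EAE. Other members carry Lyve1, the hyaluronan receptor used to mark perivascular and leptomeningeal macrophages.

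The libraries held 2856696 to 3984975 UMIs over all listed barcodes, and 1585 to 2253 barcodes each were kept. Scrublet called 68 of the 7868 as doublets, of which 1 was a member, in naive TRAIL-. Any pair of libraries listed 68 to 114 barcodes in common, no member barcode was a member in both, and 3 naive TRAIL+ members had a barcode listed in another library. Sex-linked genes separated the naive from the EAE libraries: Xist, transcribed from the inactive X chromosome, had a UMI in 1.29% and 1.53% of the kept naive barcodes and in 30.0% and 60.1% of the EAE barcodes. Among the members, Xist was seen in 10 of 21 EAE TRAIL+ cells and in none of 55 naive TRAIL+ cells, and 4 Y-linked genes in 17 of 55 naive and 1 of 21 EAE TRAIL+ cells. In every contrast of EAE with naive below, disease, the sex of the mice and the library cannot be told apart.

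The genes of the rule are given first, as a description of what was chosen. In naive TRAIL+ the 55 members held 252 Mrc1 UMIs in 51 cells, 145 Pf4 UMIs in 46 cells and 83 UMIs of the carbonyl reductase gene Cbr2 in 39 cells. In EAE TRAIL+ the 21 members held 165 Mrc1 UMIs in 21 cells, 25 Pf4 UMIs in 8 and 32 Cbr2 UMIs in 12. Cd163 was seen in 20 of 55 and 8 of 21, Lyve1 in 14 and 4, the folate receptor Folr2 in 12 and 7, and the lectin Clec10a in 21 and 11. Of the 82 members, 74 had UMIs of at least 2 of the 7 genes. The other 8 rested on 1 gene, of which 3 were naive TRAIL+ members, 3 EAE TRAIL+ members and 2 EAE TRAIL- members. The share of UMIs in the 7 genes had a median of 0.730% in naive TRAIL+ (range 0.370% to 2.26%) and of 0.671% in EAE TRAIL+ (0.320% to 2.71%). Just inside the threshold, from 0.3% to 0.45%, lay 2 and 6 members of the naive TRAIL- and TRAIL+ libraries and 1 and 3 of the EAE ones, and just outside it, from 0.2% to 0.3%, lay 1, 6, 1 and 1 barcodes that passed the other limits. Summed over the naive TRAIL+ barcodes, Apoe was at 12751 CPM just inside and 14686 CPM just outside, and the class II chain H2-Aa at 1836 and 10751 CPM, where CPM are UMIs per 1000000 of the cells' sum.

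**Figure D1:**
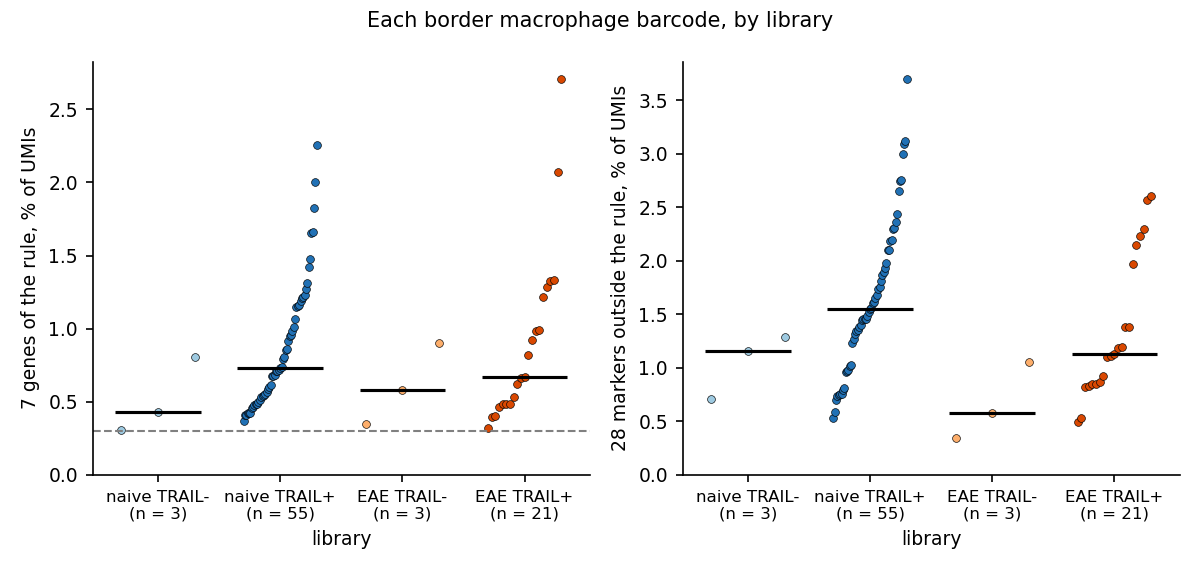
Each point is 1 member, placed by library, with the percent of its UMIs in the 7 genes of the rule (left, dashed line at the 0.3% threshold) and in 28 other border macrophage markers that the rule did not use (right); bars are medians. The outside markers have medians of 1.54% in naive TRAIL+ and 1.13% in EAE TRAIL+, and the 6 TRAIL- members range from 0.348% to 1.29%.

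A list of 28 other border macrophage genes, which the rule did not read, was set beside the label. The list was chosen with earlier results of these data known, so it is not an independent check. UMIs of the 28 genes made up a median of 1.15% and 1.54% of a member's UMIs in the TRAIL- and TRAIL+ gates of naive mice and of 0.580% and 1.13% in those of EAE mice. A member held UMIs of a median of 5, 9, 3 and 10 of these genes in the same order. Against microglia, taken from the same libraries by the mirrored rule on the microglial genes (1523 in the TRAIL+ gate of naive and 949 in that of EAE mice), the list summed to 15978 against 1853 CPM in naive TRAIL+, 8.62-fold higher (8.09 to 9.18). In EAE TRAIL+ it summed to 12935 against 1509.5 CPM, 8.57-fold higher (7.76 to 9.44). The filter on low values was passed by 20 of the 28 in naive TRAIL+ and by 10 for EAE. That filter asks that the mean of both levels be worth at least 10 UMIs in the smaller sum, and a gene absent from microglia passes it only if it is high in the members. In naive TRAIL+ the level of each of the 28 was above that in microglia, and in EAE TRAIL+ so was each except Cd36 and the iron exporter Slc40a1, which had no UMI there. For the genes with few UMIs, such as Fcna and Lilra5, the intervals overlapped. Against the 34 monocyte-like cells of EAE TRAIL+, described below, the margin was smaller. The list summed to 12935 against 6161 CPM there, 2.10-fold higher (1.86 to 2.37). Of 12 of its genes compared, 7 were at least 1.5-fold higher in members, 1 lower and 4 between. Of all genes compared with these cells, 25.8% were higher and 30.1% lower.

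**Figure D2:**
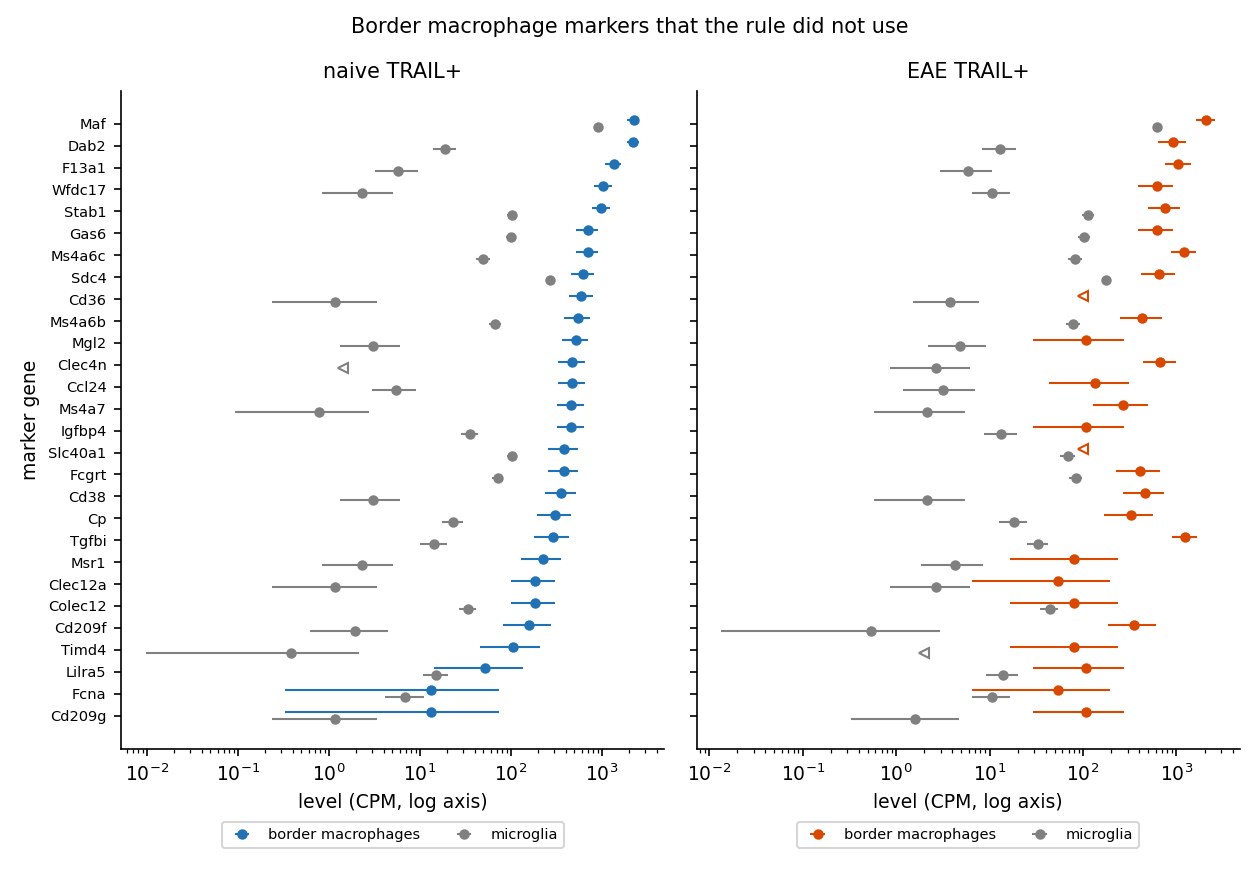
Levels (CPM, log axis) of the 28 border macrophage markers that the rule did not use, in border macrophages (coloured) and in microglia (grey) of the same library, with exact Poisson 95% intervals of counting error; open triangles mark the upper limit where no UMI was counted. Members lie to the right of microglia for every gene in naive TRAIL+, and Cd36 and Slc40a1 have no UMI in the EAE TRAIL+ members.

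Shares of cells at one depth gave the same picture against microglia. After each cell was thinned to 500 UMIs, the coagulation factor gene F13a1 had a UMI in 41.8% of naive TRAIL+ members and 0.263% of microglia, and in 28.6% and 0.211% in EAE TRAIL+. The endocytic adaptor Dab2 was seen in 56.4% of naive TRAIL+ members against 0.722% of microglia. The C-type lectin Clec4n was seen in 20% of naive TRAIL+ members against 0% of microglia. Unthinned, at median depths of 1219 UMIs for members and 1604 for microglia, F13a1 was seen in 37 of 55 members and 10 of 1523 microglia. Whether the low shares in microglia come from free RNA in the droplets was not tested.

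Markers of other cell types were low or absent in the members. The microglia, monocyte, endothelial and pericyte lists include genes that the rule capped, so their low sums were partly fixed in advance. The microglia and monocyte-like cells set beside them were chosen by being high in some of these genes. Of the microglia list of 13 genes, the members held 3146 CPM in naive TRAIL+ and 2178 in EAE TRAIL+, against 24089 and 19644 in microglia, and the transcription factor Sall1 had 2 and 0 UMIs. The astrocyte genes Aldh1l1 and Gfap were at 0 UMIs in the members of all 4 libraries, although the labels call the sorted cells astrocytes and the reporter is driven by Aldh1l1. Neuron and platelet lists had no UMI in the TRAIL+ members. The remaining lists were each at or under 342 CPM in both TRAIL+ libraries, except the monocyte list: neutrophil 118 and 108 CPM in naive and EAE, dendritic cell 158 and 188, T or NK cell 13.2 and 26.9, and B cell 342 and 80.7. Mast cell genes were at 13.2 and 26.9 CPM, endothelial genes at 145 and 242, pericyte genes at 39.5 and 53.8, and fibroblast genes at 26.3 and 26.9. Astrocyte genes were at 52.6 and 0 CPM, oligodendrocyte genes at 145 and 80.7, choroid plexus epithelium at 65.8 and 108, and erythroid genes at 0 and 161. The monocyte list of 12 genes was at 65.8 CPM in naive TRAIL+ (5 UMIs) and 2178 CPM in EAE TRAIL+ (81 UMIs), against 16464 CPM in the monocyte-like cells of EAE TRAIL+. Of the 81 UMIs, 55 were of Thbs1 in 4 cells and 12 of the monocyte chemokine receptor Ccr2 in 2 cells. Ly6c2 was at 0, as was Chil3, which the rule capped, and 16 of the 21 members had no UMI of the list.

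The TRAIL+ gate held 76 of the 82 members. They were 3 of 2253 kept barcodes in naive TRAIL- (0.133%, exact interval 0.0275% to 0.389%), 55 of 2226 in naive TRAIL+ (2.47%, 1.87% to 3.20%), 3 of 1585 in EAE TRAIL- (0.189%, 0.0391% to 0.552%) and 21 of 1804 in EAE TRAIL+ (1.16%, 0.722% to 1.77%). The share was 18.6-fold higher (6.03 to 92.7) in the TRAIL+ than the TRAIL- gate of naive mice and 6.15-fold higher (1.84 to 32.2) in that of EAE mice. Within the TRAIL+ gate it was 2.12-fold higher in naive than in EAE (1.26 to 3.70). Per 100 microglia there were 3.61 members in naive TRAIL+ and 2.21 in EAE TRAIL+, a ratio of 1.63 whose interval of 0.971 to 2.84 includes no difference. In the TRAIL- gates there were 1.15 per 100 microglia in naive (0.236 to 3.41) and 2.86 in EAE (0.580 to 8.58). On that scale, with all members counted, the EAE TRAIL- gate was not below the EAE TRAIL+ gate, whose interval was 1.36 to 3.40. The EAE TRAIL- value rests on 3 members beside 105 microglia. Only 1 of them was kept when at least 2 rule genes were required, or without members at or above 0.5% monocyte UMIs. EAE TRAIL+ kept 18 and 19 of its 21 members in these settings. The order of the EAE gates per microglia is therefore not settled. All of these shares are of sorted cells and do not measure the share in tissue. The transcript of TRAIL itself, Tnfsf10, had 1 UMI in the EAE TRAIL+ members and 0 in the members of the other 3 libraries. The floor of 3 UMIs, used in ratios in place of a count of 0, is worth 39.5 CPM in the 55 naive TRAIL+ members. Lamp1, which encodes the other surface protein of the sort, was seen in 37 of 55 naive TRAIL+ members (1145 CPM) and 12 of 21 in EAE TRAIL+ (619 CPM), with 2 and 0 UMIs in the 3 members of naive TRAIL- and of EAE TRAIL-.

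Compared with microglia of the same library, border macrophages held more apolipoprotein, lysozyme and monocyte-attracting chemokines, and fewer genes of NF-kB feedback. Their class II genes were higher in sum, an excess carried by part of the members. In naive TRAIL+, 1225 genes were compared, and 222 (18.1%) were 2-fold or more above the microglial level in members and 177 (14.4%) as far below it. In EAE TRAIL+, 556 genes were compared, with 101 (18.2%) higher and 86 (15.5%) lower. These counts depend on scaling. With TMM factors, which align the bulk of genes in place of the totals and shift every log2 ratio by -0.50 and -0.79, they were 137 higher and 318 lower in naive and 54 and 210 in EAE. The rule chose both classes by their genes, so these ratios describe the classes.

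Apoe, the lipid carrier that macrophages secrete, stood out by level. It was at 21979.8 CPM in the naive TRAIL+ members, with UMIs in all 55, and at 353 CPM in microglia, 62.2-fold higher (57.4 to 67.5). In EAE TRAIL+ it was at 17049 and 700.5 CPM, 24.3-fold higher (22.1 to 26.8). Lysozyme, Lyz2, was 27.5-fold higher (24.9 to 30.4) in naive members and 14.8-fold higher (12.8 to 17.1) in EAE members. The oxidase subunit Cybb was 172-fold higher (102 to 309) in naive, and the secreted protease inhibitor Wfdc17 448-fold higher (197 to 1259). Clec4n, an activating lectin of phagocytes, had 36 UMIs in the naive members and 0 in microglia. With the floor of 3 UMIs in place of 0 it was 409-fold higher (interval from 316). In the other direction lay genes that mark microglia without being in the rule. Olfml3 had 2 UMIs in naive members and was 40.8-fold lower (11.3 to 337). The matrix gene Sparc was 18.5-fold lower (12.2 to 29.6), the P-selectin ligand Selplg 12.7-fold lower (7.29 to 24.7) and the fractalkine receptor Cx3cr1 4.30-fold lower (3.49 to 5.36). The complement genes C1qa, C1qb and C1qc, shared by tissue macrophages, were near equal: C1qa was at 3317 CPM in naive members and 3481 in microglia.

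The chemokines split by family member. Ccl7, a ligand of Ccr2 that attracts monocytes, was at 5988 CPM in naive TRAIL+ members and 77.3 CPM in microglia, 77.5-fold higher (65.5 to 92.0). Ccl2, another Ccr2 ligand, was 8.79-fold higher (7.62 to 10.1) and the neutrophil attractant Cxcl2 14.6-fold higher (13.2 to 16.2). The inflammatory chemokines Ccl3 and Ccl4 went the other way, 2.51-fold lower (2.09 to 3.03) and 3.36-fold lower (2.93 to 3.88). Of the chemokine list, 9 of 12 compared genes were at least 1.5-fold higher and 3 lower in naive members (8 and 3 with TMM factors), where 29.6% of all genes compared were higher and 24.3% lower. In EAE TRAIL+ it was 8 and 2 of 10, against 26.4% and 24.6%, under either scaling. The list includes Pf4, a gene of the rule, whose place among the higher genes was fixed in advance. The NF-kB feedback and cytokine list lay lower: 12 of 16 compared genes in naive TRAIL+ and 11 of 14 in EAE TRAIL+ were lower and 1 in each was higher, and with TMM factors 13 and 13 were lower. Its sum was 2.21-fold lower (2.09 to 2.33) in naive and 2.80-fold lower (2.55 to 3.08) in EAE. Its inhibitor gene Nfkbia was 3.89-fold lower (3.40 to 4.47) in naive and 5.20-fold lower (4.06 to 6.77) in EAE, and Tnf was 3.75-fold lower (2.84 to 5.06) in naive.

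Other lists are described by their sums over all listed genes and by the genes that passed the filter, some of which passed it only through their level in the members. Of all genes compared, 29.6% were at least 1.5-fold higher and 24.3% lower in naive TRAIL+ (16.7% and 41.7% with TMM factors). In EAE TRAIL+ the shares were 26.4% and 24.6% (12.9% and 58.5% with TMM factors). Of the scavenger and endocytic receptors outside the rule, 10 of 19 passed in naive TRAIL+, of which 7 were at least 1.5-fold higher in members and 3 lower (6 and 3 with TMM factors), and the sum was 3.96-fold higher (3.61 to 4.33). In EAE TRAIL+ it was 3 and 1 of 6 (3 and 3 with TMM factors), with a sum 2.54-fold higher (2.18 to 2.94). The type I interferon list of 23 genes summed to 3685 CPM in naive members and 593 in microglia, 6.21-fold higher (5.45 to 7.06). Only 7 of its genes passed the filter, all 7 higher in members (5 with TMM factors), among them Ifi207, 125-fold higher (77.5 to 211). In EAE TRAIL+ the interferon sum was 2.31-fold higher (1.98 to 2.69), and 4 of 5 genes were higher. Of the iron and haem list, 7 of 8 were higher and none lower in naive (5 and none with TMM factors), but in EAE TRAIL+ 2 of 4 and none, and with TMM factors none was higher and 1 lower. Of the Fc receptors, which bind antibody, 3 of 5 were higher and none lower in naive (2 and 1 with TMM factors). Lysosomal genes were mixed, with 6 of 22 higher and 9 lower (2 and 11 with TMM factors). The efferocytosis receptor Mertk and the lipid-sensing receptor Trem2 were both on the microglial side, 2.45-fold lower (1.52 to 4.21) and 2.82-fold lower (1.80 to 4.70) in members.

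**Figure D3:**
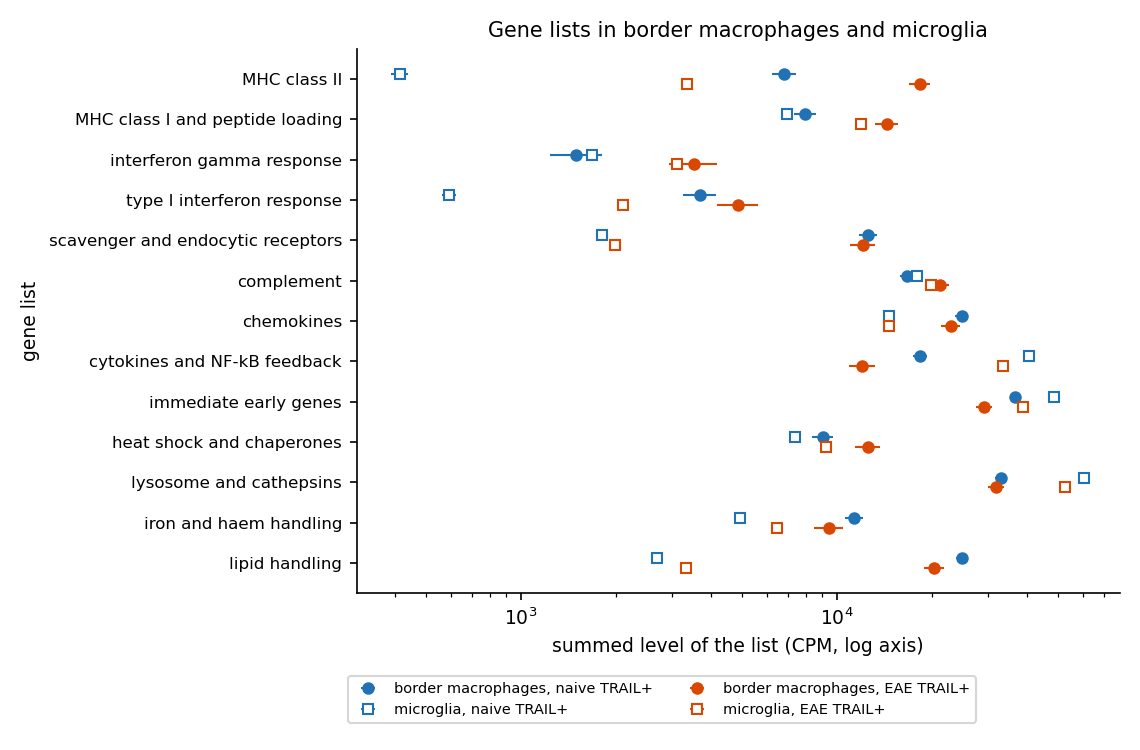
Summed level (CPM, log axis) of 13 gene lists in border macrophages (filled circles) and microglia (open squares) of naive TRAIL+ (blue) and EAE TRAIL+ (orange). The scavenger and chemokine lists include genes of the rule. The class II genes stand at 6805 and 18286 CPM in members and at 414 and 3353 CPM in microglia, and the NF-kB list is lower in members than in microglia in both libraries.

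Monocyte-like cells, 34 barcodes of EAE TRAIL+ chosen by Plac8 and Chil3 with the other lists under their limits, stood for the cells that enter from blood. Of 604 genes compared, 114 (18.9%) were 2-fold or more higher in the 21 members and 121 (20%) were 2-fold or more lower. Ccl8, a chemokine ligand of Ccr2 and other receptors, had 65 UMIs in 10 members and 0 in the monocyte-like cells, at least 60.3-fold higher. On the same floor, the adhesion molecule Vcam1, with 29 against 0 UMIs, was 26.9-fold higher (interval from 20.5). The Mertk ligand Gas6, with 23 against 0, was 21.4-fold higher (interval from 16.0). The macrophage transcription factor Maf was 15.3-fold higher (8.60 to 29.3), Ccl7 17.8-fold higher (10.4 to 32.2) and C1qa 7.15-fold higher (5.44 to 9.48). Arginase, Arg1, had 414 UMIs in the monocyte-like cells and 0 in members, on that floor 49.6-fold lower (interval from 40.1). Spp1, which encodes osteopontin, had 324 and 0 UMIs and was 38.8-fold lower (interval from 31.4). Fibronectin, Fn1, had 1 UMI against 365, a ratio of 131-fold lower (23.4 to 5191). All 9 glycolysis genes compared were at least 1.5-fold lower in members, where 30.1% of all genes were, and the list summed to 6.04-fold lower (4.66 to 7.98). Immediate early genes, the transcription factors first induced on stimulation and also by tissue dissociation, were higher for 12 of 18 and lower for none, where 25.8% of all genes were higher. Class II genes summed to 18286 CPM in members and 17652 in monocyte-like cells, a ratio of 1.04 with an interval of 0.947 to 1.13.

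The main disease contrast set the 21 EAE TRAIL+ members (37186 UMIs) against the 55 naive TRAIL+ members (75979 UMIs). Levels of class II genes, Ccl8, Ccl9 and Tgfbi were higher in EAE, and those of Cd83, Ccl7, Cd36, Jund and Rhob were lower. Of 567 genes compared, 59 (10.4%) were 2-fold or more higher in EAE and 60 (10.6%) were 2-fold or more lower. With TMM factors, which lower every log2 ratio by 0.31, 36 genes were higher. Of the 24 genes named by size, all kept their direction and their 2-fold size under TMM and DESeq2 factors. The median depth was 1561 UMIs in EAE and 1219 in naive members, and monocyte genes were at 2178 and 65.8 CPM. The monocyte UMIs lay mostly in 2 of the 21 EAE members, with 41 and 36 of the 81, which also held all 12 Ccr2 UMIs and, of the rule genes, only Mrc1 (24 and 19 UMIs). Without members at or above 0.5% monocyte UMIs, which leaves 19 EAE and 55 naive members, 49 genes were 2-fold or more higher and 32 lower, and all 24 named genes kept their direction. With at least 1000 UMIs required of every cell, all 24 kept their direction and 2-fold size. Fewer held under other choices of members. Where the rule genes had to hold at least 1% of UMIs, 16 of 19 genes compared kept their direction and 9 their 2-fold size. At 0.5% it was 23 and 22 of 24. Without members at or above 1% class II UMIs it was 20 and 19 of 23. Over the alternatives tried, the weakest log2 ratio was -0.47 for Hbegf, -0.79 for Sf1, -0.26 for Ccl7 and -0.21 for both Gadd45b and Herpud1. The direction turned in at least 1 alternative for Jund (0.0532), H2-Aa (-1.64), Hspa1a (-1.13) and Hspa1b (-1.86).

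Ccl8 (GRCm38, chromosome 11, 82115185 to 82116799) was first among the autosomal genes named by size, which were ranked by the bound of the interval nearest to 1 and needed UMIs in at least 25% of the members of the higher library. It had 0 UMIs in the 3 naive TRAIL- members, 65.8 CPM in naive TRAIL+ (5 UMIs in 3 of 55), 25 UMIs in the 3 EAE TRAIL- members and 1748 CPM in EAE TRAIL+ (65 UMIs in 10 of 21), 26.6-fold higher (10.8 to 84.5) in EAE TRAIL+. The groups overlapped at 0, since 11 of 21 EAE members had none. At one depth of 500 UMIs it was seen in 38.1% of EAE and 1.82% of naive TRAIL+ members, and in 0% of microglia in both libraries. Ccl9, a ligand of Ccr1, had 0 UMIs in the 3 naive TRAIL- members, 65.8 CPM in naive TRAIL+ (5 UMIs in 2 of 55), 1 UMI in the 3 EAE TRAIL- members and 726 CPM in EAE TRAIL+ (27 UMIs in 8 of 21), 11.0-fold higher (4.19 to 36.7). Without the 2 EAE members with monocyte genes its log2 ratio was 2.57 in place of 3.46. Tgfbi, a matrix protein induced by TGF-beta, had 2 UMIs in the 3 naive TRAIL- members, 289.6 CPM in naive TRAIL+ (22 UMIs in 14 of 55), 2 UMIs in the 3 EAE TRAIL- members and 1237 CPM in EAE TRAIL+ (46 UMIs in 10 of 21), 4.27-fold higher (2.52 to 7.46). Its thinned share was 33.3% in EAE and 10.9% in naive members, and without those 2 members its log2 ratio was 1.49 in place of 2.09.

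Other chemokines differed in both directions. Ccl7 (chromosome 11, 82045712 to 82047525), which lies in the same chemokine cluster, had 1 UMI in the 3 naive TRAIL- members, 5988 CPM in naive TRAIL+ (455 UMIs in 26 of 55), 0 UMIs in the 3 EAE TRAIL- members and 2743 CPM in EAE TRAIL+ (102 UMIs in 12 of 21), 2.18-fold lower (1.76 to 2.73). Of the naive UMIs, 76 came from 1 cell, and over the alternatives tried the log2 ratio ran from -1.44 to -0.26. Ccl2 was 1.65-fold lower (1.27 to 2.17), and the eotaxin Ccl24, seen in 15 naive and 2 EAE members, was 3.52-fold lower (1.38 to 11.5). Ccl12 was 2.27-fold higher (1.55 to 3.34), with 33 of its 60 EAE UMIs in 1 cell, and Cxcl1 2.38-fold higher (1.33 to 4.30), with 25 of 28 in 1 cell. Cxcl2 was at 7002 and 6562 CPM in naive and EAE, with an interval of the ratio that includes 1. Of the 12 chemokines compared, 4 were at least 1.5-fold higher and 4 lower, where 19.4% of all genes were higher and 19.4% lower (4 and 5 with TMM factors). The lower ones include Pf4, a gene of the rule.

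Among the receptors for antibody, 3 of 5 compared were at least 1.5-fold higher in EAE and 2 lay between (2 and 3 with TMM factors). For this and the next lists, 19.4% of all genes compared were higher and 19.4% lower (12.7% and 35.1% with TMM factors). Fcgr4, the activating receptor for IgG2, had 0 UMIs in the 3 naive TRAIL- members, 0 CPM in naive TRAIL+ (0 UMIs in 0 of 55), 0 UMIs in the 3 EAE TRAIL- members and 457 CPM in EAE TRAIL+ (17 UMIs in 7 of 21). With the floor of 3 UMIs in place of 0 it was 11.6-fold higher, though its mean level was under the filter. The high-affinity receptor Fcgr1 was at 289.6 CPM in naive (22 UMIs in 12 members) and 779.9 CPM in EAE (29 UMIs in 9 members), 2.69-fold higher (1.49 to 4.92). The inhibitory receptor Fcgr2b was at 645 CPM in naive (49 UMIs in 27 members) and 1694 CPM in EAE (63 UMIs in 18 members), 2.63-fold higher (1.78 to 3.90). Fcgr3 was at 974 CPM in naive (74 UMIs in 34 members) and 995 CPM in EAE (37 UMIs in 15 members), with an interval of the ratio that includes 1. The 6 receptor genes listed summed to a level 1.76-fold higher (1.48 to 2.08). Class I genes were higher for 4 of 5 (2 with TMM factors), among them H2-K1 (1.87-fold higher (1.45 to 2.42)) and H2-Q4 (3.97-fold higher (2.15 to 7.59)). Class I genes are alike in sequence, so reads can be split among them and their values are uncertain. Of 6 type I interferon genes compared, 4 were higher and 1 lower (3 and 1 with TMM factors): Ifitm3 was 2.70-fold higher (1.61 to 4.58) and Ifi207 2.09-fold lower (1.25 to 3.64).

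Of 8 scavenger and endocytic receptors outside the rule, 4 were at least 1.5-fold lower in EAE and 1 higher (5 and 0 with TMM factors), where 19.4% of all genes were lower (35.1% with TMM factors). The whole list of 24, which includes rule genes, summed by total counts to 1.04-fold lower (0.931 to 1.17), an interval that includes 1. Cd36 (chromosome 5, 17781690 to 17888801), the receptor for fatty acids and oxidised lipoproteins, had 0 UMIs in the 3 naive TRAIL- members, 592 CPM in naive TRAIL+ (45 UMIs in 21 of 55), 0 UMIs in the 3 EAE TRAIL- members and 0 CPM in EAE TRAIL+ (0 UMIs in 0 of 21). With the floor of 3 UMIs in place of 0, Cd36 was 7.34-fold lower in EAE TRAIL+ (interval from 5.73). That floor is worth 80.7 CPM in the 21 members. At 500 UMIs per cell Cd36 was seen in 20% of naive members. Slc40a1, the iron exporter ferroportin, had 6 UMIs in the 3 naive TRAIL- members, 382 CPM in naive TRAIL+ (29 UMIs in 13 of 55), 0 UMIs in the 3 EAE TRAIL- members and 0 CPM in EAE TRAIL+ (0 UMIs in 0 of 21), under the filter on low values. The lectin Mgl2 was at 513 CPM in naive (39 UMIs in 18 members) and 108 CPM in EAE (4 UMIs in 3 members), 4.77-fold lower (1.72 to 18.4). Dab2 was at 2211 CPM in naive (168 UMIs in 45 members) and 914 CPM in EAE (34 UMIs in 12 members), 2.42-fold lower (1.66 to 3.61), and Pf4, a gene of the rule, at 1908 CPM in naive (145 UMIs in 46 members) and 672 CPM in EAE (25 UMIs in 8 members). Other receptors differed less: Mrc1 was at 3317 CPM in naive and 4437 in EAE, and the hyaluronan and lipoprotein receptor Stab1 at 987 and 753 CPM with an interval of the ratio that includes 1.

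Cd83, Jund, Hbegf, Rhob, Gadd45b and Plek were among the genes named by size that were lower in EAE. Cd83, a surface protein of activated antigen-presenting cells, had 10 UMIs in the 3 naive TRAIL- members, 3698 CPM in naive TRAIL+ (281 UMIs in 36 of 55), 2 UMIs in the 3 EAE TRAIL- members and 834 CPM in EAE TRAIL+ (31 UMIs in 10 of 21), 4.44-fold lower (3.06 to 6.65). Its thinned share was 50.9% in naive and 28.6% in EAE members, against 80.4% and 60.5% in microglia. The AP-1 subunit Jund was at 3554 CPM in naive (270 UMIs in 40 members) and 1237 CPM in EAE (46 UMIs in 14 members), 2.87-fold lower (2.10 to 4.02). With at least 1% of UMIs in the 7 rule genes, the log2 ratio of Jund was 0.0532. The growth factor Hbegf was at 579 CPM in naive (44 UMIs in 14 members) and 26.9 CPM in EAE (1 UMI in 1 member), a ratio of 21.5-fold lower (3.67 to 869.7). The small GTPase Rhob was at 1277 CPM in naive (97 UMIs in 28 members) and 296 CPM in EAE (11 UMIs in 7 members), 4.32-fold lower (2.31 to 8.93), and the stress sensor Gadd45b was 4.08-fold lower (1.75 to 11.6). The platelet and leukocyte substrate of protein kinase C, Plek, was at 2698 CPM in naive (205 UMIs in 37 members) and 861 CPM in EAE (32 UMIs in 11 members), 3.14-fold lower (2.15 to 4.70). Of 18 immediate early genes compared, 7 were at least 1.5-fold lower and 1 higher, where 19.4% of all genes were lower and 19.4% higher. With TMM factors it was 11 and 0, where 35.1% of all genes were lower and 12.7% higher. The list had a median log2 ratio of -0.50, against -0.02 over all genes. Fos and Egr1, the best known of them, had intervals of the ratio that include 1. Of 11 cytokine and NF-kB feedback genes 5 were lower and 1 higher (8 and 0 with TMM factors), with a summed level 1.53-fold lower (1.37 to 1.70), and Nfkbia was 1.68-fold lower (1.26 to 2.26). In microglia of the same libraries, the immediate early list was lower for 4 of 20 genes and higher for none, where 7.81% of all genes compared were lower, and its sum was 1.25-fold lower (1.24 to 1.26), against 1.26-fold lower (1.17 to 1.35) in members. Hspa1a and Hspa1b, stress-induced heat shock genes with near-identical coding sequences whose reads can be split between them, were 2.55-fold higher (1.83 to 3.57) and 3.22-fold higher (2.25 to 4.65). Both directions turned when members needed at least 1% of UMIs in the 7 rule genes or when members rich in class II were left out, and Hspa1b also turned at 0.5%. Of 9 heat shock genes compared 3 were higher and 0 lower. Their median log2 ratio was -0.28, opposite in sign to the sum (1.39-fold higher (1.23 to 1.56)), and with TMM factors 2 were higher and 5 lower.

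**Figure D4:**
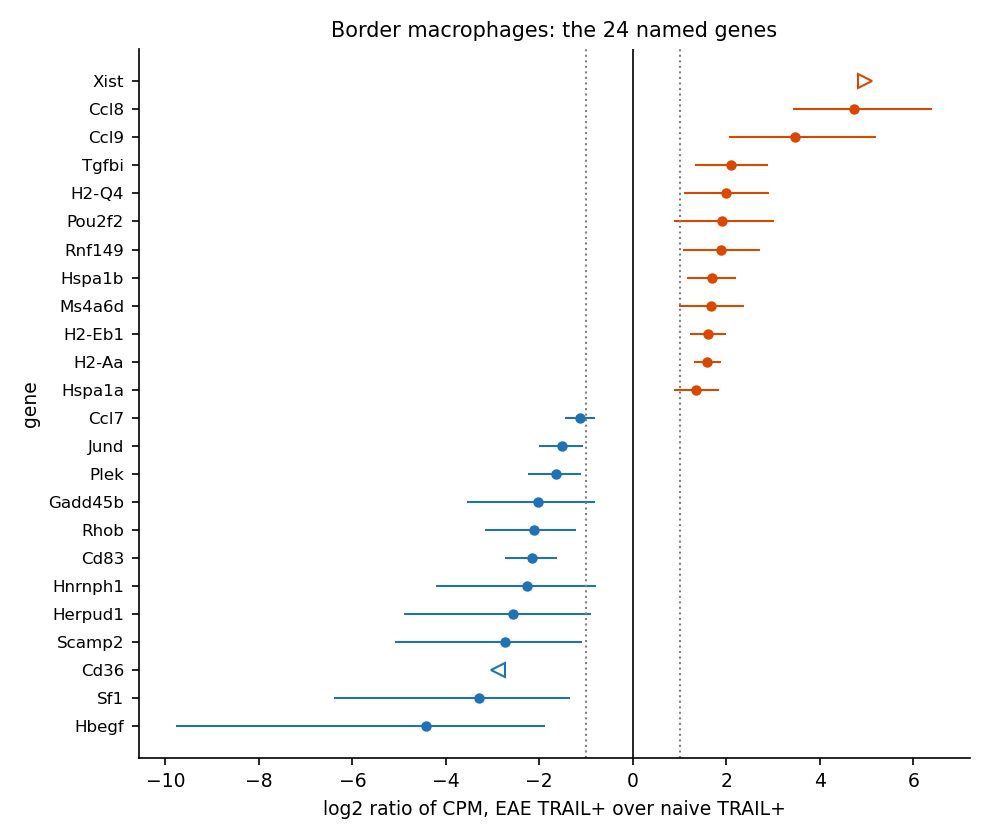
Log2 ratio of summed levels in EAE TRAIL+ (21 members) to naive TRAIL+ (55 members) for the 24 genes named by size, with exact 95% intervals of counting error; dotted lines mark 2-fold and open triangles mark bounds for genes with no UMI in 1 library (Xist, Cd36). Ccl8 and Ccl9 lie highest among autosomal genes, and Hbegf and Sf1 lie lowest among genes with UMIs in both.

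The remaining genes named by size were Rnf149 (3.70-fold higher (2.12 to 6.63)), Ms4a6d (3.20-fold higher (1.98 to 5.24)) and the transcription factor Pou2f2 (3.77-fold higher (1.85 to 8.07)) among the higher, besides Xist, and among the lower the splicing factor Sf1 (9.79-fold lower (2.54 to 83.6)), Scamp2 (6.69-fold lower (2.13 to 33.8)), Herpud1 of the endoplasmic reticulum stress response (5.87-fold lower (1.86 to 29.8)) and the RNA-binding protein Hnrnph1 (4.77-fold lower (1.72 to 18.4)). Sf1, Scamp2, Herpud1 and Hnrnph1 rest on 2, 3, 3 and 4 UMIs in the EAE members. Growth and matrix factors were mixed, with 2 of 8 higher and 3 lower (2 and 4 with TMM factors), and Bmp2, seen in 13 naive members and 1 EAE member, was lower in a ratio of 10.8 (2.81 to 91.7). Complement genes were higher for 1 of 7 and lower for 1 (0 and 1 with TMM factors), and lysosomal genes higher for 5 of 21 and lower for 4 (2 and 5 with TMM factors). Over all genes compared, 19.4% were at least 1.5-fold higher and 19.4% lower (12.7% and 35.1% with TMM factors).

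MHC class II was higher in EAE, and the difference was carried by part of the cells. H2-Aa (chromosome 17, 34282744 to 34287823), the alpha chain of I-A, had 23 UMIs in the 3 naive TRAIL- members, 2211 CPM in naive TRAIL+ (168 UMIs in 11 of 55), 20 UMIs in the 3 EAE TRAIL- members and 6669 CPM in EAE TRAIL+ (248 UMIs in 11 of 21), 3.02-fold higher (2.47 to 3.69). H2-Eb1 (chromosome 17, 34305867 to 34316674), the beta chain of I-E, had 13 UMIs in the 3 naive TRAIL- members, 1250.3 CPM in naive TRAIL+ (95 UMIs in 8 of 55), 12 UMIs in the 3 EAE TRAIL- members and 3792 CPM in EAE TRAIL+ (141 UMIs in 12 of 21), 3.03-fold higher (2.32 to 3.98). Cd74, the invariant chain that guides class II to the endosome, had 45 UMIs in the 3 naive TRAIL- members, 2869 CPM in naive TRAIL+ (218 UMIs in 19 of 55), 22 UMIs in the 3 EAE TRAIL- members and 6346 CPM in EAE TRAIL+ (236 UMIs in 15 of 21), 2.21-fold higher (1.83 to 2.67). The peptide editor H2-DMb1 was 3.68-fold higher (1.61 to 8.92) and H2-Ab1, the beta chain of I-A, 2.61-fold higher (1.35 to 5.13). All 5 class II genes that passed the filter, of 10 listed, were at least 1.5-fold higher, also with TMM factors, with a median log2 ratio of 1.59. Of all genes compared, 19.4% were that much higher (12.7% with TMM factors). A single naive member held 88 of the 168 H2-Aa UMIs of its library, and the richest EAE member 53 of 248. The 2 EAE members with monocyte genes held 108 and 97 of the 648 EAE UMIs of H2-Aa, H2-Ab1, H2-Eb1 and Cd74. Without them the sum of these 4 genes was 2.19-fold higher (1.93 to 2.50) in EAE, and without the richest member of each library it was 3.93-fold higher (3.39 to 4.57). Microglia of the same gate had 663 genes (6.33%) 2-fold or more higher and 193 (1.84%) lower in EAE, of 10468 compared at a much greater depth. There the sum of H2-Aa, H2-Ab1, H2-Eb1 and Cd74 was 28.1-fold higher (24.8 to 31.9) in EAE, from 104 to 2909 CPM, where 16.9% of all genes compared were at least 1.5-fold higher. In members the same sum was 2.65-fold higher (2.36 to 2.99), from 6568 to 17426 CPM. The summed level was 63.4-fold (54.6 to 73.8) above that of microglia in naive and 5.99-fold (5.51 to 6.50) in EAE. In naive a single member held 227 of the 499 UMIs, and without the richest member of each library the ratios were 35.5 (29.9 to 42.2) and 4.97 (4.53 to 5.44). Without members at or above 1% of UMIs in these 4 genes, they were 6.90 (4.95 to 9.43) and 0.181 (0.0826 to 0.343). That cut removes the cells richest in these genes. With at least 1% of UMIs in the 7 rule genes, they were 1.25 (0.256 to 3.69) and 0.171 (0.0467 to 0.439). These last ratios rest on 3 naive and 4 EAE class II UMIs of the members. In both settings the EAE members lay below EAE microglia. The cut at 1% class II was made in members and not in microglia, so there that order was partly fixed in advance.

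Class II genes share a promoter module, the W/S, X and Y boxes, at which the RFX, CREB and NF-Y factors recruit the coactivator CIITA. The stretches of 150 bases before the start of H2-Aa and H2-Eb1 are shown because both genes are among those named by size. They are from RefSeq on GRCm38.p6, written 5′ to 3′ on the gene's strand, with capitals for the Y box (TGATTGG), the core of the X1 box (AACNGATG) and the X2 box (TGACGTCA) where these letters occur.
H2-Aa, chr17:34287824-34287973, minus strand: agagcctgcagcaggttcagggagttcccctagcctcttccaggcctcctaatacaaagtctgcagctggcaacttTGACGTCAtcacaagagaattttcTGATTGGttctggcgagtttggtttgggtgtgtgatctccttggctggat
H2-Eb1, chr17:34305717-34305866, plus strand: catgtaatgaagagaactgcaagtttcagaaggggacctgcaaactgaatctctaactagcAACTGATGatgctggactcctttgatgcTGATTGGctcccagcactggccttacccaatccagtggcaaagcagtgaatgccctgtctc
In H2-Aa the X2 letters begin 74 bases and the Y letters 50 bases before the start. In H2-Eb1 the X1 letters begin 89 bases and the Y letters 61 bases before it. Over the 250 bases before the start of 32851 RefSeq genes, searched on both strands, the Y letters occurred in 7.23%, the X2 letters in 1.55% and the X1 letters in 1.98%. A match of letters is a description and not evidence of binding in these cells. The transcript of CIITA itself, Ciita, had 3 UMIs in the naive TRAIL+ members and 0 in the EAE TRAIL+ members, which was too few to compare at this depth.

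The share of a cell's UMIs in H2-Aa, H2-Ab1, H2-Eb1 and Cd74 ranged from 0 to 10.8% in naive TRAIL+ members and from 0 to 7.83% in EAE TRAIL+ members. No class II UMI was seen in 35 of 55 naive and 5 of 21 EAE members. At or above 1%, a line drawn after the values were seen, lay 7 of 55 naive members (12.7%, 5.27% to 24.5%) and 10 of 21 EAE members (47.6%, 25.7% to 70.2%). Between 0.5% and 1.5% lay 2 naive and 2 EAE members above the line and 2 naive and 0 EAE members below it. In EAE TRAIL+ the members below the line reached 0.205% and those above it began at 1.16%. In naive TRAIL+ these values were 0.747% and 1.07%. Whether the line separates types of cell was not tested. The 3 naive TRAIL- members had 0%, 0.346% and 3.75%, and the 3 EAE TRAIL- members 0.193%, 1.26% and 3.94%. Thinned to 500 UMIs, 29.1% of naive and 57.1% of EAE TRAIL+ members had a class II UMI, against 5.32% and 39.7% of microglia. In 2.99% of the vascular cells of naive TRAIL+, at one thinned depth, a class II UMI was seen. Without the members at or above 1%, H2-Aa had a log2 ratio of -1.64 and the summed class II list of -0.20 in EAE against naive, as the line itself removes the cells richest in these genes.

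Markers of the members differed across this range. In EAE TRAIL+, Lyve1 had UMIs in 0 of the 10 members at or above 1% and in 4 of the 11 below it. Cd163 was seen in 1 of 10 and 7 of 11 (99.7 and 1869.6 CPM), Pf4 in 2 of 10 and 6 of 11 (199 and 1227 CPM) and Cbr2 in 3 of 10 and 9 of 11 (199 and 1636 CPM). Mrc1 was seen in 10 of 10 and 11 of 11, at 4883 and 3914 CPM. Median depths were 1722 UMIs at or above the line and 1482 below it. In naive TRAIL+ Pf4 was seen in 3 of 7 members at or above 1% and in 43 of 48 below it (491 and 2128 CPM), Cd163 in 1 of 7 and 19 of 48, Lyve1 in 1 of 7 and 13 of 48, and Mrc1 in 7 of 7 and 44 of 48 (2747 and 3405 CPM), so that the Mrc1 level differed in opposite directions in the EAE and naive libraries. Clec10a was seen in 3 of 7 and 18 of 48 naive members, at 1374 and 471 CPM, the other way from its 448 and 1052 CPM in EAE. Since a member needs UMIs of any of the 7 genes, cells with few of one must hold another, and these counts are not independent of the rule.

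Genes outside the rule were mixed. The median share of UMIs in the 28 other border macrophage markers was 1.11% at or above the line and 1.38% below it in EAE TRAIL+, and 1.45% and 1.55% in naive TRAIL+. F13a1 was at 399 and 1811 CPM in EAE TRAIL+, in 6 of 10 and 8 of 11 members. Dab2 was seen in 7 of 10 and 5 of 11 EAE members, Maf in 7 of 10 and 9 of 11 and Ccl8 in 5 of 10 and 5 of 11. Ccl7 was at 785 CPM in the 7 naive members at or above the line and 6795 CPM in the 48 below it. The median share of monocyte and of dendritic cell genes was 0% on both sides of the line in both TRAIL+ libraries. The highest monocyte share was 1.27% at or above the line and 0.0745% below it in EAE TRAIL+, and both members that held the 12 Ccr2 UMIs lay above it, with 1.14% and 1.27%. Like 1 other EAE TRAIL+ member they rested on Mrc1 alone among the rule genes. The median share of microglial genes was 0.103% and 0.366%. Of the 10 EAE members at or above the line, 7 had at least 2 of the 7 rule genes, against 11 of 11 below it. With at least 2 rule genes required of every member, the summed class II list had a log2 ratio of 1.04 in EAE against naive, in place of 1.43.

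**Figure D5:**
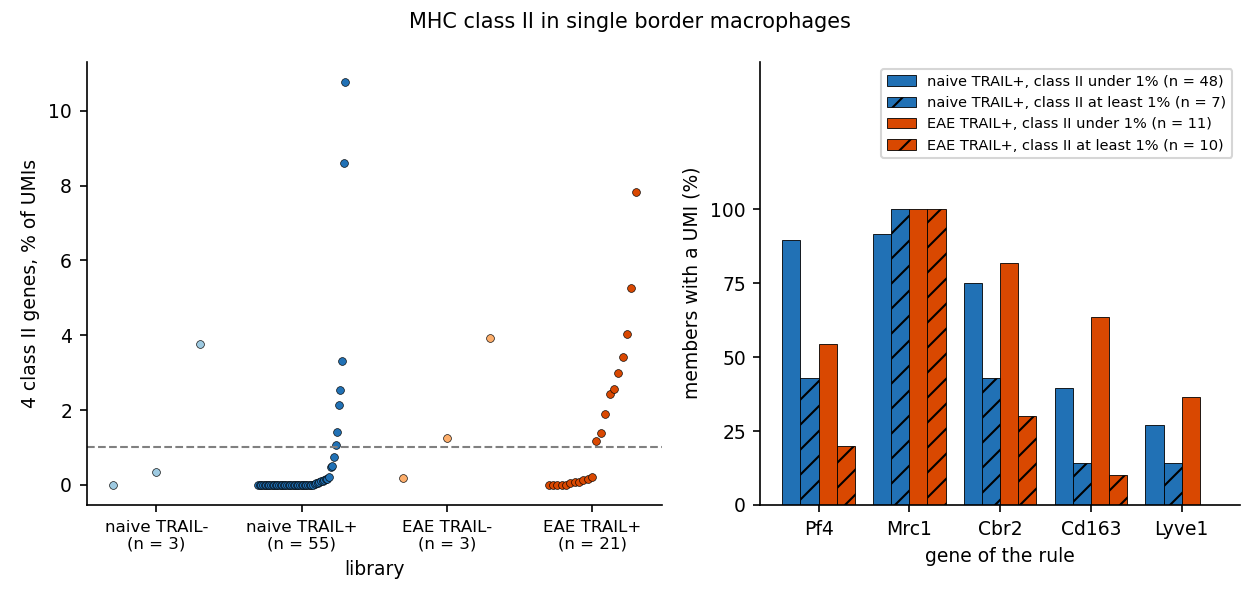
Left, percent of UMIs in H2-Aa, H2-Ab1, H2-Eb1 and Cd74 for each member by library, with a dashed line at 1%; right, percent of members with a UMI of Pf4, Mrc1, Cbr2, Cd163 and Lyve1 at or above and below that line in the TRAIL+ libraries. Mrc1 is seen on both sides in nearly all cells, while Pf4, Cbr2, Cd163 and Lyve1 are seen in smaller shares above the line.

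The 6 TRAIL- members were too few to compare over genes. The 3 of naive TRAIL- held 866, 933 and 2265 UMIs, each with 2 or 3 of the rule genes, and Mrc1 in all 3. Of the 3 in EAE TRAIL-, 1 with 1991 UMIs carried 6 UMIs of Pf4, 3 of Mrc1, 9 of Folr2, 48 of Apoe and 25 of Ccl8. The other members of that library, with 517 and 863 UMIs, each rested on 3 UMIs of 1 rule gene, Clec10a and Mrc1. Neither held a UMI of Apoe, Dab2 or Maf, and their monocyte list shares were 0.967% and 0.811%, so their place among border macrophages rests on 1 gene each, as for the 3 EAE TRAIL+ members with Mrc1 alone.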

How the data were processed

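The deposited tables hold UMI counts per barcode and gene without scaling. Reads were aligned with Bowtie to GRCm38, per the submitters' processing notes; versions and annotation were not stated. TdTomato was not among the gene columns. The members, the 21 gene lists and the 18 marker lists were chosen with earlier results of these data known. Microglia and monocyte-like cells came from the mirrored rule (own markers at least 3 UMIs and 0.3%, the others under their limits). Doublets were kept and called with Scrublet in scanpy 1.11.5 at an expected 5% (1 member). Counts were summed per library and class and divided by their total to give CPM, with exact Poisson, conditional binomial and Clopper-Pearson 95% intervals (SciPy 1.17.1), a floor of 3 counts and no test. Genes entered where their mean CPM was worth at least 10 UMIs in the smaller sum. They were called at 2-fold, lists at 1.5-fold. Named were, per direction, the 12 genes with the interval bound farthest from 1 among those called, with UMIs in at least 25% of the higher group's cells, leaving out genes of the rule, mitochondrial genes and unnamed gene models, besides list genes with at least 10 UMIs. A gene that this choice named is not reported here. Scaling alternatives were TMM (edgeR 4.0.16) and size factors (DESeq2 1.42.0). Gene positions are from the GENCODE annotation of GRCm38, promoters from RefSeq.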

Additional observations from a re-analysis of the deposited data

How the results depend on the processing

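As reported, EAE against naive in TRAIL+ members gave 59 genes higher and 60 lower, and log2 ratios of summed lists of 1.43 for class II, -0.61 for NF-kB feedback, -0.33 for immediate early genes and 0.47 for heat shock. Against microglia 222 genes were higher and 177 lower in naive TRAIL+, and 101 and 86 in EAE TRAIL+. With a marker share of at least 0.5%, 39 genes were higher and 37 lower, naive TRAIL- kept 1 member, and the ratios were 1.21 for class II, -0.58 for immediate early genes, -0.0410 for heat shock and -0.28 for Hspa1b. At 1%, members numbered 0 in both TRAIL- libraries, 18 in naive TRAIL+ and 6 in EAE TRAIL+, and 12 genes were higher and 8 lower. The ratios were then 1.95 for class II, 0.23 for NF-kB feedback, 0.20 for heat shock, -1.86 for Hspa1b, -1.13 for Hspa1a and 0.0532 for Jund. The class II ratio there rests on 4 EAE and 3 naive UMIs of its 4 main genes, Ccl9, H2-Aa, H2-Eb1, H2-Q4 and Hnrnph1 had too few UMIs there for a ratio, and counts against microglia were 58 and 73 in naive and 23 and 24 in EAE, where fewer cells leave fewer genes to compare. With at least 1000 UMIs, naive TRAIL- and EAE TRAIL- kept 1 member each. Without any microglial UMI the ratios were 1.18 for class II, -0.19 for NF-kB feedback and -0.17 for immediate early genes, and counts against naive microglia were 138 and 117. TMM gave 36 genes higher in EAE, ratios of 1.11, -0.92, -0.64 and 0.16 for class II, NF-kB feedback, immediate early genes and heat shock, and counts against microglia of 137 and 318 in naive and 54 and 210 in EAE. DESeq2 factors gave 37, then 1.13, -0.90, -0.62 and 0.18, then 138 and 303, and 57 and 202. Over all genes with more than 3 UMIs in either sum the counts were 838 and 659 for EAE against naive, 2621 and 1094 against naive microglia and 2582 and 690 against EAE microglia, mostly from genes with few UMIs. The next alternatives were chosen after seeing the data. With at least 2 of the 7 marker genes, 29 genes were lower, class II was at 1.04 and EAE TRAIL- kept 1 member. Without members at or above 1% class II UMIs, 27 genes were higher and 29 lower, and the ratios were -0.20 for class II, -1.04 for immediate early genes, 0.0559 for heat shock, -1.64 for H2-Aa, -0.0575 for Hspa1b and -0.64 for Hspa1a. Without members at or above 0.5% monocyte UMIs, 32 genes were lower, class II was at 1.16 and EAE TRAIL- kept 1 member. Without the member richest in class II of each library class II was at 1.96. Leaving out Scrublet doublets, the deepest member of each library or the members with a shared barcode, or weighting cells equally, moved none of these counts and sums past the limit of 1.5 times or the counting interval and turned no named gene. The removal of class II cells lowers class II in itself, and the cause of the other shifts was not tested. No paired analysis was possible because each group has 1 library, and no replicate could be left out. Depth limits the TRAIL- libraries, with 3371 and 4064 member UMIs, to single values.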
